A study of Mus musculus with 14 samples.

Results

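The liver transcripts described here come from 41 genes of the endoplasmic reticulum (ER) stress response and the cytosolic heat shock response. They were chosen by name, as the rows of the raw count table whose gene name was 1 of these 41, out of 55487 genes in the table. The livers were the right lobes of male TALLYHO/JnG mice, a polygenic model of type 2 diabetes, aged 8 to 12 weeks, of which only males were used because only males become diabetic. The vehicle group was 7 mice gavaged with water and the indole group was 7 mice gavaged with 20 mg/kg indole, a bacterial breakdown product of tryptophan. Gavage was given 2 times a day on 7 consecutive days, with 2 further doses between the metabolic tests. All 14 mice had glucose and insulin tolerance tests before the liver was taken. Mice are named by their libraries, G1 to G14. The question put to these genes was whether their mRNA levels differed between indole and vehicle, and which of them varied together from mouse to mouse.

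The ER folds secreted and membrane proteins, and hepatocytes, which secrete most plasma proteins, carry a large ER. When unfolded protein builds up, 3 sensors in the ER membrane respond. IRE1 (*Ern1*) splices the mRNA of the transcription factor XBP1, PERK (*Eif2ak3*) slows translation and favours synthesis of ATF4, and ATF6 is cleaved to release a transcription factor. XBP1 and ATF6 raise transcription of ER chaperones and of ER-associated degradation (ERAD), which passes misfolded proteins to the cytosol for destruction. ATF4 raises transcription of genes for amino acid supply and stress signalling. In the cytosol, HSF1 drives the heat shock chaperones. Much of this signalling is not visible in the level of the sensor mRNAs, since splicing of *Xbp1*, cleavage of ATF6 and translation of *Atf4* were not measured by gene counts.

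Of the 41 genes, 34 had a promoter in the RefSeq table for mouse (GRCm38.p6, C57BL/6J reference sequence rather than TALLYHO), from 250 bases before to 50 bases after the transcription start. These windows were searched on both strands for the ER stress element ERSE (CCAAT, 9 bases of any kind, CCACG), for ERSE-II (ATTGG, 1 base, CCACG), for the core of the unfolded protein response element (TGACGTGG), for the CARE element bound by ATF4 (TGATG, 1 base, AA) and for the heat shock element (GAA, 2 bases, TTC, 2 bases, GAA, or TTC, 2 bases, GAA, 2 bases, TTC). ERSE was found in 9 of the 34 promoters (26.5%), against 0.137% of the 27025 genes with a promoter. The searched elements belong to the responses by which the genes were chosen, so such shares describe the set and test nothing. Of the 12 ER chaperones with a promoter, 7 held it, as did 2 of the 7 ERAD genes and none of the 15 others. *Manf*, *Hyou1*, *Atf6*, *Derl1*, *Hspa8*, *Hsp90aa1* and *Hsp90ab1*, which the results also name, had no promoter in the table and were not searched. The ERSE sites are shown because more of the ER chaperones share this element than any other searched. Each is written 5′ to 3′ on the strand where it reads CCAAT to CCACG, with those 2 blocks in capitals.
*Hspa5*, chr2:34772025-34772043, plus strand: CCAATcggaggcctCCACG
*Hsp90b1*, chr10:86705533-86705551, plus strand: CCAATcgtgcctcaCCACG
*Hsp90b1*, chr10:86705638-86705656, minus strand: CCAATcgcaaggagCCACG
*Calr*, chr8:84847075-84847093, plus strand: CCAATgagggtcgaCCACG
*Canx*, chr11:50325800-50325818, minus strand: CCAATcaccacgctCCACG
*Pdia6*, chr12:17266491-17266509, plus strand: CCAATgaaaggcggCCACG
*Dnajc3*, chr14:118937827-118937845, plus strand: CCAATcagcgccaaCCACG
*Creld2*, chr15:88819520-88819538, minus strand: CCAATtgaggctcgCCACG
*Syvn1*, chr19:6046532-6046550, plus strand: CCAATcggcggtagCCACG
*Derl3*, chr10:75893242-75893260, minus strand: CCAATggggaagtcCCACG

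The other elements were found in fewer genes. ERSE-II was in *Dnajb11* and *Herpud1* (0.0444% of all genes), CARE in *Asns*, *Chac1*, *Trib3* and *Herpud1* (4.51% of all genes) and the heat shock element in *Hsph1* alone (0.662% of all genes). Of the 8 cytosolic heat shock genes, 5 had a promoter to search. Only exact matches were counted, so a looser heat shock element would have been missed. The core of the unfolded protein response element was in none of the 34 and in 0.714% of all genes. No 2 of these sites overlapped. They are shown because *Trib3* and *Hsph1* stand for the ATF4 and heat shock arms in the results, and because *Herpud1* is the 1 gene with sites of 2 kinds. Capitals mark the letters that each element fixes.
*Dnajb11* ERSE-II, chr16:22857852-22857862, plus strand: ATTGGcCCACG
*Herpud1* ERSE-II, chr8:94386377-94386387, plus strand: ATTGGgCCACG
*Herpud1* CARE, chr8:94386317-94386324, minus strand: TGATGcAA
*Asns* CARE, chr6:7693225-7693232, minus strand: TGATGaAA
*Chac1* CARE, chr2:119351049-119351056, minus strand: TGATGcAA
*Trib3* CARE, chr2:152344039-152344046, plus strand: TGATGtAA
*Hsph1* heat shock element, chr5:149636288-149636300, minus strand: TTCtgGAAagTTC

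For 3 of the ERSE genes whose levels went with *Hspa5* from mouse to mouse, the 250 bases before the transcription start are given on the strand of the gene, with ERSE in capitals. In *Creld2* the element lies on the opposite strand and reads CGTGG to ATTGG here.
*Creld2*, chr15:88819396-88819645, plus strand: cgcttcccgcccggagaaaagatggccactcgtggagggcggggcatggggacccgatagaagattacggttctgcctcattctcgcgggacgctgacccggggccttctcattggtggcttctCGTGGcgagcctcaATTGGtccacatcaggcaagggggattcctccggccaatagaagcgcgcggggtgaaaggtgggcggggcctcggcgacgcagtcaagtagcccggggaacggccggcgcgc
*Syvn1*, chr19:6046326-6046575, plus strand: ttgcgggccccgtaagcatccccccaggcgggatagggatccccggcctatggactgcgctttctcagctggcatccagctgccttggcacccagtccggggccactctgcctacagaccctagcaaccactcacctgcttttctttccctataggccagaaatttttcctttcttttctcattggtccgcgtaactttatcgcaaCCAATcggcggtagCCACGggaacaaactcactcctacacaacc
*Canx*, chr11:50325674-50325923, minus strand: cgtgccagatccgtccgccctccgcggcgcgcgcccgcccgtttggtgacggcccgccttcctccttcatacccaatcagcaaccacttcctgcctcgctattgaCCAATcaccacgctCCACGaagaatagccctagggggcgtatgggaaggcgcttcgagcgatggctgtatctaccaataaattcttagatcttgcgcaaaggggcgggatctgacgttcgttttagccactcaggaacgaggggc
A match of letters describes the reference sequence and is not evidence of binding.

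Total counts per mouse ranged from 15197498 to 21060376. Libraries G1 to G4, a pair from each group, had TMM scaling factors of 1.07 to 1.08, against 0.931 to 1.004 in the other 10, and the lowest summed hepatocyte marker levels. These were 75952 to 85689 CPM (counts scaled to the effective library size) in G1 to G4 and 95164 to 110979 CPM in the others. All 10 hepatocyte markers were detected in the samples. Of the other cell types, mouse G8 of the indole group stood apart, with a Kupffer cell and macrophage marker sum of 548 CPM where the rest of that group had 150 to 249 CPM. In bulk tissue, fewer cells of a type and less RNA per cell cannot be told apart.

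Of the 41 genes, 39 had enough reads for the test. *Derl3*, an ERAD channel gene, had 0 to 19 reads per mouse, and *Hspa1a*, which encodes an inducible cytosolic HSP70, had 0 to 12, so neither was tested. A second row named *Ddit3* (ENSMUSG00000116429) had no reads in any mouse and was left out.

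Levels between genes were compared as CPM per kb, with the gene lengths of the deposited table. The most abundant gene of the set per kb was *Calr*, the lectin chaperone calreticulin, at 297±42.6 CPM per kb in vehicle-treated mice (SD, *n*=7). The cytosolic HSP90 gene *Hsp90ab1* followed at 276±26.1 CPM per kb (SD, *n*=7), a distance smaller than the spread between mice. *Herpud1*, a membrane component of ERAD, was at 180±38.6 CPM per kb and *Hspa5*, which encodes the ER HSP70 chaperone BiP, at 160±18.8 CPM per kb (SD, *n*=7 each). The sensors were far lower. *Ern1* was at 7.97±0.983, *Atf6* at 5.42±0.599 and *Eif2ak3* at 2.18±0.209 CPM per kb, an order in which each was more than 1 SD from the next. Among the targets of ATF4, *Trib3*, a pseudokinase gene, was the most abundant at 11.6±3.56 CPM per kb, and *Asns*, the asparagine synthetase gene, was the least abundant gene tested, at 0 to 33 reads per mouse.

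**Figure D1:**
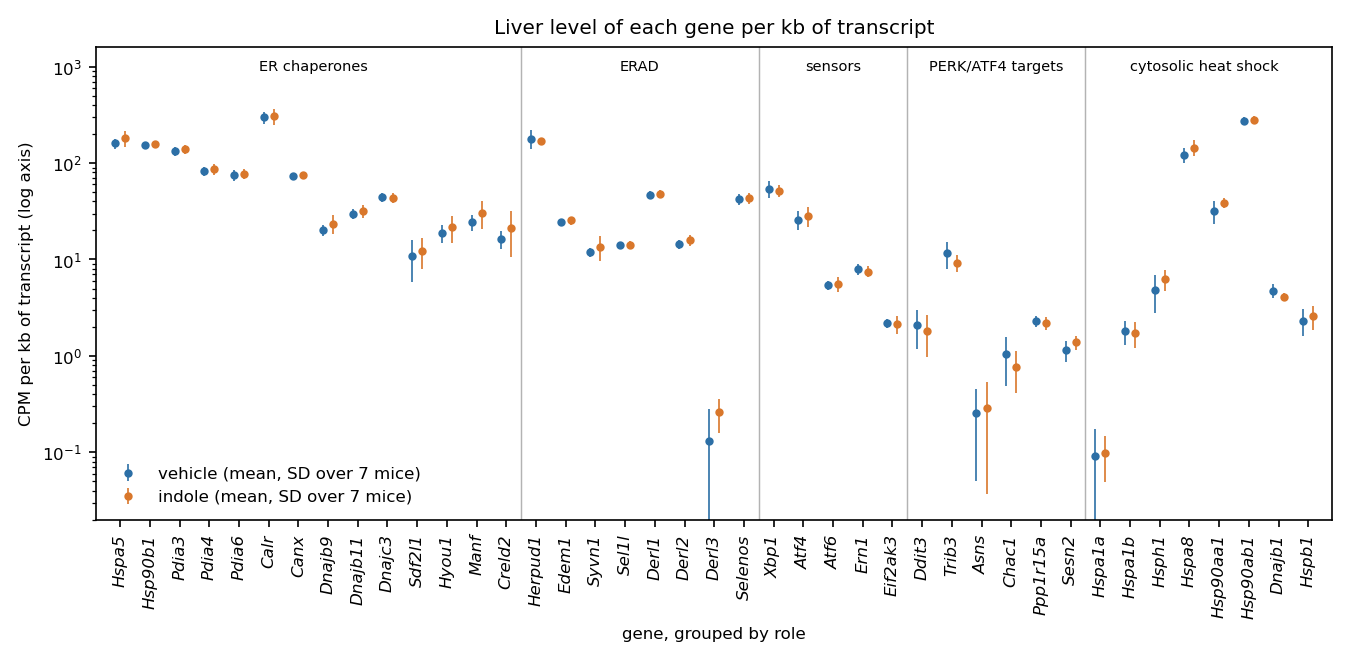
Level of each of the 41 genes in CPM per kb of transcript (log axis), grouped by role, with the mean and SD of 7 vehicle-treated (blue) and 7 indole-treated mice (orange). Bars that reach the lower edge run on below it. *Calr* and *Hsp90ab1* are highest, and *Derl3* and *Hspa1a*, which were not tested, are lowest.

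In indole-treated TALLYHO mice, the ER stress and heat shock genes lay close to their vehicle levels. With edgeR's quasi-likelihood test, 27 of the 39 genes tested were higher and 12 were lower, while 51.3% of all 12653 genes tested were higher. The median log2 fold change was 0.05 for the set and 0.0042 for all genes tested. Without G1 to G4, 23 of the 39 were higher, and these medians were 0.020 and 0.0088. Many of the genes varied together between mice, so such counts are not of separate observations. With an unadjusted *p* below 0.05 there was 1 of the 39 genes, *Hspa8*, where 3.81% of all genes tested met that threshold (482 genes). None of the 39 had a Benjamini–Hochberg adjusted *p* below 0.05 in edgeR, and neither did any other gene tested (0%). DESeq2 on the same genes gave 1 gene with an adjusted *p* below 0.05, which was not in the set, and *Hspa8* was again the only one of the 39 with an unadjusted *p* below 0.05. The groups overlapped for all 41 genes. The share over all genes tested is not given here, so this is not read as a trait of the set. The labels do not state that each library is a separate mouse, so the *p* values measure the spread between these libraries.

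**Figure D2:**
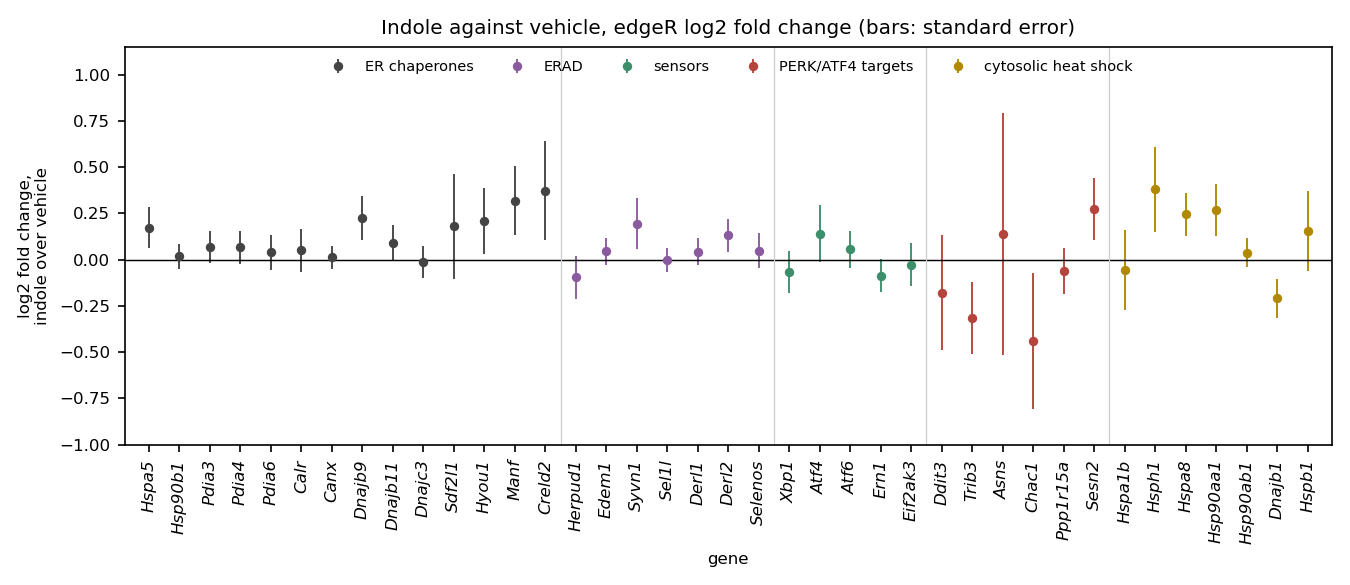
Log2 fold change of indole over vehicle (edgeR, vertical axis) for each of the 39 genes tested, coloured by role, with its standard error as a bar. Most points lie within 1 or 2 standard errors of 0, and 13 of the 14 ER chaperones lie above 0.

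Among the 14 chaperones and folding enzymes of the ER, 13 were higher with indole and 1 (*Dnajc3*) was lower, none with an unadjusted *p* below 0.05, and the median log2 fold change was 0.08. These genes varied together between mice, so the 14 are not separate observations. *Hspa5* (ENSMUSG00000026864, chromosome 2 of GRCm38 from 34771970 to 34777547) encodes BiP, the chaperone that holds the sensors inactive when it is bound to them. Its level was 579, 667 and 808 CPM (lowest, median and highest) in the vehicle group and 567, 768 and 976 CPM in the indole group. The highest mice were G2 and G8, both given indole, and the lowest was G12, also given indole, so the indole group enclosed the vehicle group. The log2 fold change was 0.17 (SE 0.111, unadjusted *p*=0.137 and adjusted *p*=0.998 in edgeR). An exact permutation test on log2 CPM gave a two-sided *p* of 0.227. When each mouse was left out in turn, the log2 fold change ranged from 0.10 to 0.24. The highest value was without G12, with an unadjusted *p* below 0.05 in edgeR. No gene had an adjusted *p* below 0.05 in that fit.

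*Calr* (ENSMUSG00000003814, chromosome 8 from 84841850 to 84846934) had 660, 901 and 978 CPM in the vehicle group and 642, 864 and 1135 CPM in the indole group. The indole group again reached both further down, in G3, and further up, in G8. The difference was 0.05 on the log2 scale (SE 0.117, adjusted *p*=0.998 in edgeR). The chaperone genes with the largest log2 fold changes were *Creld2* (0.37) and *Manf* (0.32), both for soluble ER proteins that can be secreted, then *Dnajb9* (0.22), a BiP co-chaperone, and *Hyou1* (0.21), an ER HSP110. Their unadjusted *p* values were 0.188, 0.109, 0.0766 and 0.265 in edgeR, so none was distinguishable from the spread between mice. The other chaperones (*Hsp90b1*, *Pdia3*, *Pdia4*, *Pdia6*, *Canx*, *Dnajb11*, *Dnajc3* and *Sdf2l1*) had log2 fold changes between −0.01 and 0.18.

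Of the 7 ERAD genes tested, 5 were higher and 2 were lower, with a median log2 fold change of 0.05. *Herpud1* (ENSMUSG00000031770, chromosome 8 from 94386438 to 94395377), which helps assemble the degradation complex, had 267, 442 and 515 CPM in the vehicle group and 357, 390 and 443 CPM in the indole group. The indole-treated mice all lay inside the vehicle range, and G13 was the lowest of those given vehicle. *Herpud1* had a log2 fold change of −0.09 (SE 0.116, adjusted *p*=0.998 in edgeR). The others were *Syvn1* (0.19), the ubiquitin ligase HRD1, *Derl2* (0.13) and *Derl1* (0.04), channel proteins, *Selenos* (0.05), which recruits p97, *Edem1* (0.05), which reads the sugar chains of misfolded glycoproteins, and *Sel1l* (−0.00061), the partner of HRD1.

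The 3 sensors and their transcription factors showed no difference larger than the spread between mice. *Ern1* (ENSMUSG00000020715, chromosome 11 from 106394650 to 106487852) had 57.6, 59.9 and 78.1 CPM in the vehicle group and 51.0, 63.7 and 74.0 CPM in the indole group. *Eif2ak3* (ENSMUSG00000031668, chromosome 6 from 70844515 to 70905245) had 11.5, 13.1 and 15.0 CPM against 10.5, 11.6 and 17.8 CPM. *Atf6* (ENSMUSG00000026663, chromosome 1 from 170704674 to 170867771) had 42.5, 51.8 and 58.0 CPM against 42.1, 48.9 and 69.4 CPM. In the indole group the highest mouse was G2 for all 3 sensors, and the lowest mice were G5, G12 and G7 in turn. The log2 fold changes were −0.09 for *Ern1* (SE 0.0900, unadjusted *p*=0.347), −0.03 for *Eif2ak3* (SE 0.116, unadjusted *p*=0.821) and 0.06 for *Atf6* (SE 0.102, unadjusted *p*=0.591), all from edgeR. The sign for *Eif2ak3* and *Atf6* depended on single mice.

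*Xbp1* (ENSMUSG00000020484, chromosome 11 from 5520659 to 5525893) had 143, 170 and 251 CPM in the vehicle group and 138, 161 and 209 CPM in the indole group. G13 was highest among vehicle-treated mice and G2 among indole-treated mice. The log2 fold change was −0.07 (SE 0.112, unadjusted *p*=0.565 in edgeR) and 0.04 without G13. *Atf4* (ENSMUSG00000042406, chromosome 15 from 80255184 to 80257541) had 47.8, 55.7 and 87.2 CPM against 47.9, 66.3 and 97.5 CPM, with the highest levels in G1 of the vehicle group and G3 of the indole group. *Atf4* had a log2 fold change of 0.14 (SE 0.154, unadjusted *p*=0.376 in edgeR). Its 2 highest mice were among the 4 libraries with high scaling factors, which hold a pair of mice from each group.

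Of the 6 targets of the PERK and ATF4 arm, 2 were higher and 4 were lower with indole, with a median log2 fold change of −0.12. *Trib3* (ENSMUSG00000032715, chromosome 2 from 152337422 to 152344032), a pseudokinase that restrains insulin signalling through AKT, had 13.4, 26.1 and 33.1 CPM in the vehicle group and 14.4, 20.2 and 26.0 CPM in the indole group. All 7 indole-treated mice lay below the vehicle median, yet above the lowest one given vehicle, G13. This gave a log2 fold change of −0.31 (SE 0.193, unadjusted *p*=0.124 and adjusted *p*=0.998 in edgeR, exact permutation *p*=0.231, two-sided). When each mouse was left out in turn, the log2 fold change of *Trib3* ranged from −0.42 to −0.23. The former was without G13 (unadjusted *p*=0.0178 in edgeR), a fit in which no gene had an adjusted *p* below 0.05. *Ddit3*, which encodes the pro-apoptotic factor CHOP, had few reads, 25 to 105 per mouse, and a log2 fold change of −0.18. *Chac1*, which degrades glutathione, had 9 to 59 reads per mouse and a log2 fold change of −0.44 with a standard error of 0.367. *Sesn2*, a stress-induced regulator of mTORC1, had a log2 fold change of 0.27 (unadjusted *p*=0.115 in edgeR) and was above the vehicle median in 6 of 7 indole-treated mice. *Asns* (0.14) and *Ppp1r15a* (−0.06), a phosphatase subunit that restarts translation, made up the rest, and at 0 to 33 reads a mouse a difference in *Asns* was not detectable unless it was large.

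Of the 7 cytosolic heat shock genes tested, 5 were higher and 2 were lower, with a median log2 fold change of 0.15. *Hspa8* (ENSMUSG00000015656, chromosome 9 from 40800984 to 40810087), the constitutive cytosolic HSP70, had 427, 485 and 676 CPM in the vehicle group and 509, 609 and 863 CPM in the indole group. Each of the 7 mice given indole exceeded the vehicle median, while the groups overlapped because G6, G11 and G10 of the vehicle group were also high. *Hspa8* had a log2 fold change of 0.25 (SE 0.117, unadjusted *p*=0.0494 and adjusted *p*=0.998 in edgeR). The exact permutation test gave a two-sided *p* of 0.0845. When 1 mouse was left out, the unadjusted *p* stayed below 0.05 in 5 of 14 fits, those without G2, G6, G11, G12 or G14, and the log2 fold change was 0.15 without G5. Of the 100-base windows of its transcript, 63.4% also occurred in transcripts of other genes, all with Gm numbers in place of names, so reads may have been lost where only uniquely mapped reads were counted.

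*Hsph1* (ENSMUSG00000029657, chromosome 5 from 149614287 to 149636376), the cytosolic HSP110 that recharges HSP70, had 23.7, 32.8 and 67.1 CPM in the vehicle group and 31.3, 45.3 and 59.6 CPM in the indole group. The highest mouse of all was G6, which had received vehicle, while the other 6 vehicle-treated mice lay between 23.7 and 34.2 CPM. The log2 fold change was 0.38 (SE 0.232, unadjusted *p*=0.124 in edgeR, exact permutation *p*=0.0962, two-sided). When each mouse was left out in turn it ranged from 0.30 to 0.62, the latter without G6 (unadjusted *p*=0.000995 and adjusted *p*=0.920 in edgeR). *Hsp90ab1* (ENSMUSG00000023944, chromosome 17 from 45567775 to 45573271), the constitutive HSP90, had 729, 793 and 972 CPM against 730, 865 and 926 CPM. No mouse given indole lay outside the vehicle range, and the log2 fold change was 0.04 (SE 0.078, unadjusted *p*=0.629 in edgeR). *Hsp90aa1*, the inducible HSP90, had a log2 fold change of 0.27 (unadjusted *p*=0.0689) and *Dnajb1*, an HSP70 co-chaperone, had −0.21 (unadjusted *p*=0.0629, both edgeR). All 7 indole-treated mice were above the vehicle median for *Hsp90aa1* and none was for *Dnajb1*. The inducible genes *Hspa1b* (−0.06) and *Hspb1* (0.15) had 40 to 157 and 25 to 65 reads per mouse. Windows shared with other genes made up 47.5% for *Hsp90aa1*, 49.9% for *Hspa1b*, 56.5% for *Hspa1a* and 42.7% for *Hspb1*, and at most 7.63% for every other member.

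Genes of the same pathways outside the set were counted in the same way. For comparison, 51.3% of all genes tested were higher and 3.81% had an unadjusted *p* below 0.05 in edgeR. Of 22 other ER folding factors tested, 16 were higher and none had an unadjusted *p* below 0.05. Of 26 genes of ER translocation and transport, 23 were higher, 1 of them with an unadjusted *p* below 0.05, *Sec23b*, a coat protein of vesicles leaving the ER (log2 fold change 0.28, unadjusted *p*=0.0379 in edgeR). Of 19 other ERAD genes, 10 were higher, and *Rnf139*, an ER ubiquitin ligase, was lower (−0.16, unadjusted *p*=0.0229 in edgeR). Of 17 further genes at the level of the sensors, 10 were higher and none met the threshold. Of 28 other ATF4 targets, 18 were higher, and *Yars*, the tyrosyl-tRNA synthetase, met the threshold (0.20, unadjusted *p*=0.0298 in edgeR). Of 44 other cytosolic chaperones, 31 were higher, and 3 met it, *Cacybp*, a calcyclin-binding protein (0.22, unadjusted *p*=0.0189), *Ahsa1*, an activator of HSP90 (0.16, unadjusted *p*=0.0254), and *Chordc1*, an HSP90 co-chaperone (0.23, unadjusted *p*=0.0255, edgeR). Of 12 mitochondrial chaperones, 7 were higher and none met it. Each gene named had an adjusted *p* of 0.998 in edgeR. Marker genes of cell types were counted too, beside the 51.3% of all genes tested that were higher. The sums of these lists were not tested, and the ranges of the groups overlapped for each list named here. With indole 5 of 5 erythroid markers tested were higher, their sum being 204 to 384 CPM in the vehicle group and 263 to 1094 CPM in the indole group. The 8 endothelial markers were all higher (70.4 to 121 CPM against 81.0 to 158 CPM). So were 11 of 12 Kupffer cell and macrophage markers (125 to 298 CPM against 150 to 548 CPM). Even so, the median Kupffer cell and macrophage sum was lower with indole (219 CPM) than with vehicle (230 CPM). The value of 548 CPM was that of mouse G8 alone, and the other mice given indole reached at most 249 CPM. All 5 bile duct markers tested were lower (33.2 to 47.0 CPM against 27.5 to 46.3 CPM). Of 4 B and plasma cell markers tested 3 were higher (444 to 602 CPM against 280 to 672 CPM), as were 1 of 1 for T and NK cells, 7 of 10 for hepatocytes and 3 of 8 for stellate cells. The part of these cell types in the values of the set was not tested.

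The ER chaperones were high in a few single mice of either group. Mouse G2 of the indole group was the highest of its group for 10 of the 14 ER chaperones and 19 of the 39 genes, where it was highest for 14.3% of all genes tested. In *Creld2* it had 56.6 CPM where the rest of its group had 17.8 to 38.7 CPM, and it had 250 CPM of *Hyou1*, where they had 103 to 185 CPM. Mouse G13 of the vehicle group was the highest of its group for 5 of the 14 chaperones and 14 of the 39 genes, where it was highest for 14.5% of all genes tested. Mouse G6 of the same group was highest for 7 of the 14 chaperones, *Hspa5*, *Pdia4*, *Canx*, *Dnajb9*, *Dnajb11*, *Manf* and *Creld2*, and for 13 of the 39 genes, against 14.8% of all genes tested. For *Sdf2l1*, an ER-resident partner of the co-chaperone DNAJB11, G2 had 23.0 CPM and G13 had 22.8 CPM, while the other 12 mice had 6.42 to 16.4 CPM. Across the cytosolic heat shock genes G2 and G13 were each the highest of their group for 1 of 7, and G6 was for 5 of 7. G13 was also the lowest vehicle-treated mouse for *Trib3* and *Herpud1*. G8, the mouse with the high Kupffer cell marker sum, was the highest of its group for 4 of the 14 chaperones, among them *Calr* and *Pdia4*. It was highest for 8 of the 39 genes, against 1795 of all 12653 genes tested. G2 had a Kupffer cell marker sum of 184 CPM, G13 of 245 CPM and G6 of 162 CPM, all within the range of their groups without G8. Plasma cells also have a large ER. The summed level of 10 B and plasma cell markers was 280 CPM in G2, the lowest of the 14 mice, 454 CPM in G13, 593 CPM in G6 and 605 CPM in G8. Most of this sum was *Sdc1*, which hepatocytes also express (123034 reads over all mice), while *Ighm* had 558 reads, *Igkc* 455, *Jchain* 134 and *Mzb1* 1. The hepatocyte marker sum of G2 was the lowest of the 14 mice. The part of other cell types in these levels was not tested.

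**Figure D3:**
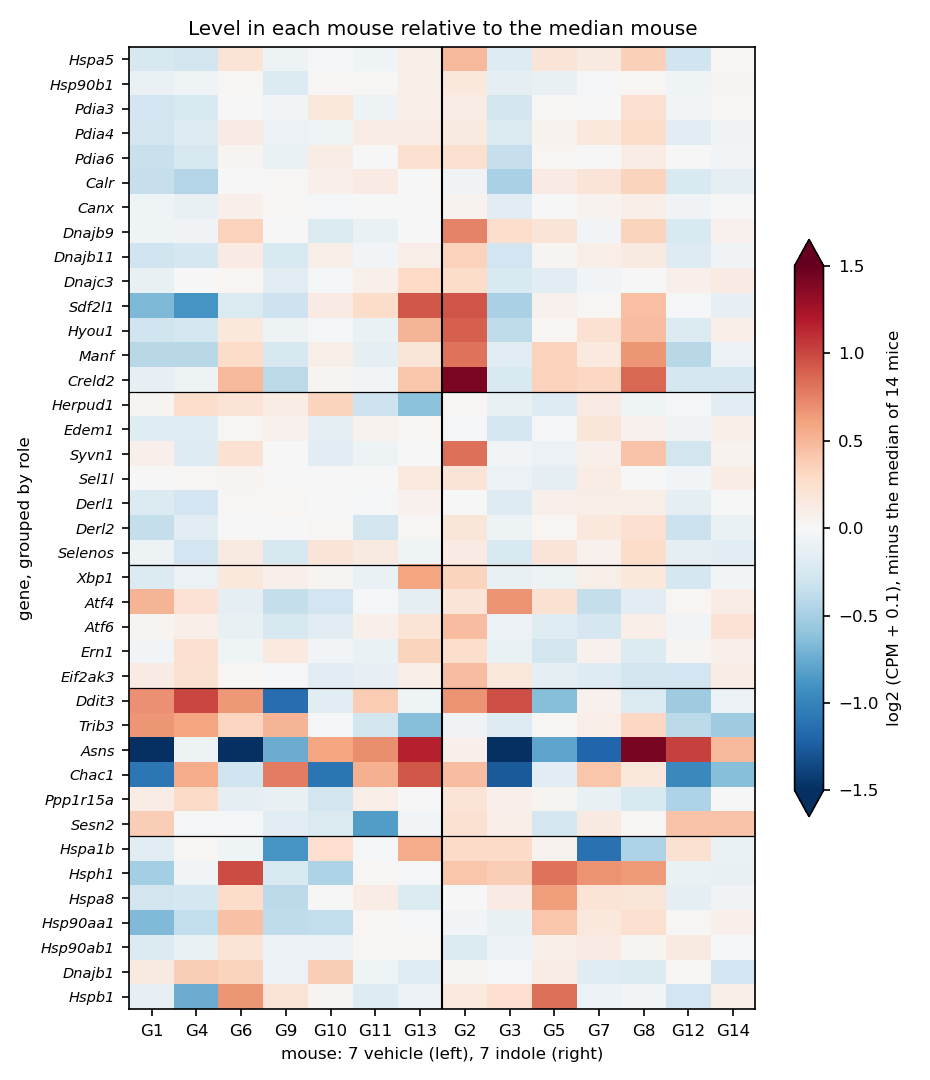
Level of each of the 39 genes tested (rows, grouped by role) in each mouse (columns, 7 vehicle on the left and 7 indole on the right), as log2(CPM + 0.1) minus the median of the 14 mice, with red above and blue below that median. The columns of G2, G8 and, in part, G6 and G13 are mostly red across the ER chaperones, while G1, G3 and G4 are mostly blue there.

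Which genes varied together was asked with the group means removed, for *Hspa5*, *Trib3* and *Hsph1*, each against the other members over 14 mice, on log2 CPM. Of the 111 pairs, 19 had a permutation *p* for Pearson's *r* below 0.05 after adjustment over the 111 pairs, all of them positive, 17 had one for Spearman's rho, and 14 had both. *Hspa5* accounted for 16 of the 19. It correlated positively with all 13 other ER chaperones, with 11 of them past the adjusted threshold, and the median *r* was 0.738. Over all 12652 other genes tested the median *r* with *Hspa5* was −0.014. An *r* above 0.7 was seen for 14 of the other 38 members and for 1.26% of all genes.

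The gene closest to *Hspa5* of all 12652 was *Manf*, with *r*=0.970 (permutation *p*=1e-05, the smallest that 100000 pairings can give, adjusted *p*=0.00111) and rho=0.982 (permutation *p*=1e-05). Without G8 and G2, the mice farthest from the median of *Hspa5*, *r* was 0.947. It was 0.955 within the 7 vehicle-treated mice and 0.976 within the 7 indole-treated mice (exact permutation *p*=0.000198 and 0.000595). *Dnajb11*, a BiP co-chaperone, ranked 3, with *r*=0.907 and rho=0.921 (permutation *p*=3e-05 and 2e-05, adjusted *p*=0.00111 and 0.00074). It had *r*=0.868 without G8 and G2. *Hyou1* had *r*=0.887 and rho=0.890 (permutation *p*=6e-05 and 0.0001, adjusted *p*=0.00166 and 0.00277) and 0.798 without G8 and G2. *Creld2* had *r*=0.876 and rho=0.938 (permutation *p*=3e-05 and 1e-05, adjusted *p*=0.00111 and 0.000555) and 0.776 without G8 and G2. *Pdia4*, *Canx*, *Derl2* and *Syvn1* had *r* of 0.851, 0.814, 0.809 and 0.797. Genes of the other lists among the 20 closest were *Srprb* and *Kdelr2* of ER translocation and retrieval, *Sec23b*, *Hspa13*, *Creb3*, *Edem2* and *Ube2g2*. *Dnajc3* (0.414) and *Hsp90b1* (0.634) were the 2 chaperones that did not pass the adjusted threshold.

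**Figure D4:**
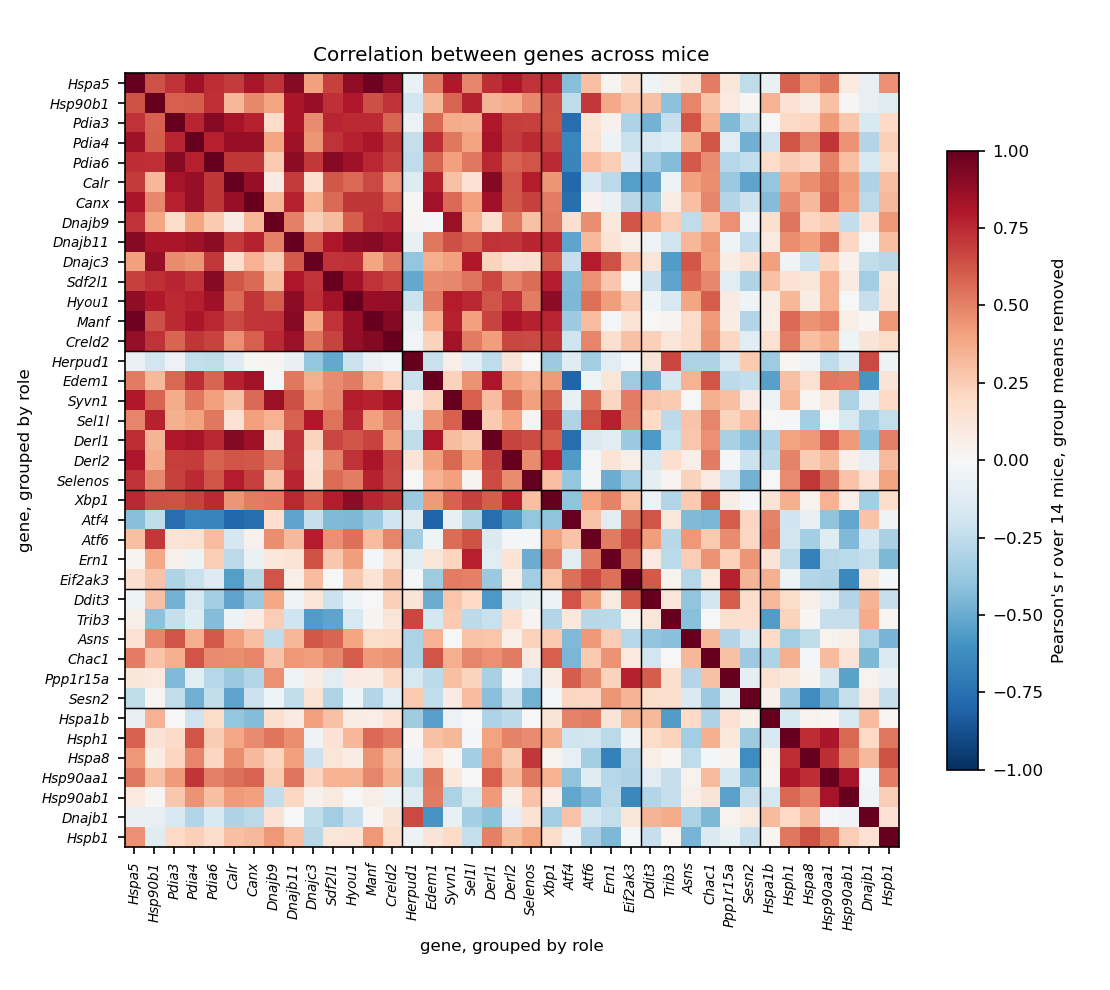
Pearson's *r* between each pair of the 39 genes tested over 14 mice, with the group means removed, on a scale from −1 (blue) to 1 (red), with black lines between the roles. The block of ER chaperones at the upper left is red throughout (91 of 91 pairs positive, median *r* 0.723), and the block of PERK and ATF4 targets has no such pattern (7 of 15 pairs positive, median *r* −0.0052).

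This pattern was also seen within parts of the data. The median *r* of *Hspa5* with the 13 chaperones was 0.742 within the vehicle group and 0.787 within the indole group, with all 13 positive in each. It was 0.771 without G8 and G2, and 0.826 without G2 and G13. Without G1 to G4, over 10 mice, it was 0.756 with 12 of 13 positive. Over all 111 pairs of the 3 genes, the number past the adjusted threshold was then 11, against 19 with all mice. The pairs share their libraries, so depth and scaling are common to them. With the CPM left unscaled by TMM, another 13 pairs of members, those followed across the alternatives, kept their sign. Of the 13 chaperone pairs above, they held only *Hspa5* with *Manf*, *Dnajb11* and *Hyou1*. ERSE occurred both in genes with a high *r* with *Hspa5* (*Creld2*, *Canx*, *Syvn1*) and in genes that did not pass the adjusted threshold with it (*Dnajc3*, *r*=0.414, and *Hsp90b1*, *r*=0.634).

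Among the sensors and transcription factors, *Xbp1* alone passed the adjusted threshold with *Hspa5* (*r*=0.752, permutation *p*=0.00162, adjusted *p*=0.0180, rho=0.824, permutation *p*=0.00064, adjusted *p*=0.0101). Without G8 and G2 *r* was 0.651, and without G1 to G4 it was 0.606 (adjusted *p*=0.247). *Atf6* (0.300), *Eif2ak3* (0.157), *Ern1* (0.031) and *Atf4* (−0.426) did not. Of 4 ERAD genes that did, *Derl2* had the highest *r*, and *Herpud1* had −0.069. The 6 targets of the PERK and ATF4 arm had *r* with *Hspa5* between −0.258 and 0.509 and none passed the threshold. For *Trib3* the *r* was 0.060 over the 14 mice, −0.522 within the vehicle group (exact permutation *p*=0.228) and 0.653 within the indole group (exact permutation *p*=0.110), both unadjusted, and 0.434 without G1 to G4. Over the 14 ER chaperones the median *r* with *Trib3* was −0.711 within the vehicle group, with 1 positive, and 0.528 within the indole group, with 13 positive. Over both groups that median was −0.140, and it was 0.033 without G2 and G13 and 0.121 without G13 and G1. Among vehicle-treated mice G13 had the least *Trib3*. The difference between the groups, and how far it rested on G13, was not tested.

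*Trib3* had 1 member past the adjusted threshold, *Herpud1*, the gene that holds both ERSE-II and CARE (*r*=0.668, permutation *p*=0.00784, adjusted *p*=0.0458, rho=0.552, permutation *p*=0.0436, adjusted *p*=0.167). The relation rested on G13, where both genes were at their lowest. Without G13 and G1, the mice farthest from the median of *Trib3*, *r* was 0.474, and without G13 alone it was 0.391. With the other 5 targets of its arm *Trib3* had *r* between −0.421 and 0.168, and no member of the set was among the 100 genes closest to it.

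*Hsph1* correlated with *Hsp90aa1* (*r*=0.820, permutation *p*=0.0006, adjusted *p*=0.0074, rho=0.692, permutation *p*=0.00732, adjusted *p*=0.0478) and *Hspa8* (*r*=0.738, permutation *p*=0.00261, adjusted *p*=0.0223, rho=0.776, permutation *p*=0.00164, adjusted *p*=0.0165). Both relations were weaker without G5 and G6, the mice with the most *Hsph1*, at *r* of 0.552 and 0.518. The median *r* of *Hsph1* with the 6 other cytosolic heat shock genes was 0.551 and was 0.041 without these mice, so it rested on them. With *Hspa5*, *Hsph1* had *r*=0.589 (permutation *p*=0.0259, adjusted *p*=0.131, rho=0.714, permutation *p*=0.00547, adjusted *p*=0.0379), and 0.683 without G8 and G2.

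**Figure D5:**
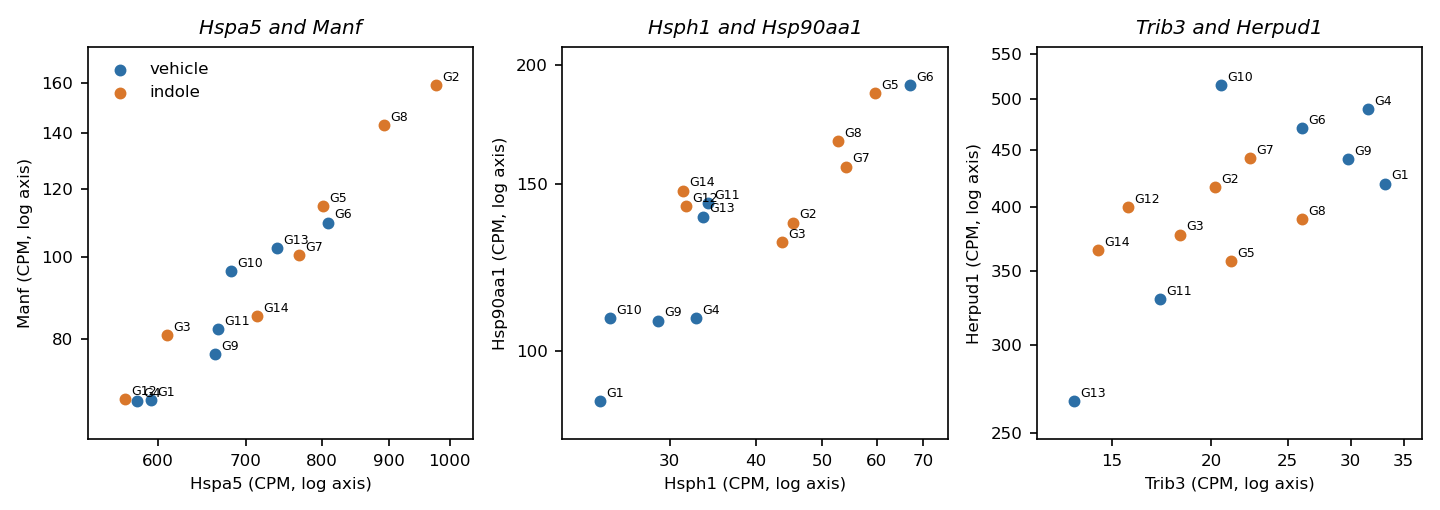
Levels in CPM (log axes) of 3 pairs of genes in each mouse, vehicle-treated in blue and indole-treated in orange, labelled by library. *Hspa5* and *Manf* lie along a line from G4 and G12 up to G8 and G2, with mice of both groups along it. *Hsph1* and *Hsp90aa1* are highest in G5 and G6, and *Trib3* and *Herpud1* are lowest in G13.

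The spread between mice differed with the gene. The SD of log2 CPM within groups was 0.0741 for *Canx*, smaller than in all but 0.537% of the genes tested, and 0.0961 for *Sel1l* and 0.101 for *Hsp90b1*. It was 0.501 for *Creld2*, 0.539 for *Sdf2l1* and 0.374 for *Manf*, and 0.232 for *Hspa5*, near the middle of all genes tested (48.3% had a smaller SD). The larger SDs of *Ddit3* (0.660), *Chac1* (0.773) and *Asns* (1.32) belonged to genes with few reads, where counting error adds to the spread.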

How the data were processed

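Right liver lobes of 14 TALLYHO mice (7 vehicle, 7 indole) were analysed as bulk RNA sequencing. Strand-specific mRNA reads were mapped by the authors to GRCm38 (HISAT2), and the deposited file holds raw, unnormalised counts of uniquely mapped reads per gene. The counting tool and its strand setting were not given in the sources used here. Total counts were 15197498 to 21060376 per mouse, and *p* values and SDs include counting error at that depth.

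From these counts, TMM-normalised CPM and log2 CPM (prior count 2) were computed, and groups taken from the sample labels were compared with edgeR 4.0.16 in R 4.3.3 (filterByExpr, robust quasi-likelihood test) on 12653 genes, with Benjamini–Hochberg adjustment over them. SEs were derived from the fold change and the F statistic. Exact permutation tests used all 3432 relabellings. Correlations used 100000 random pairings, and all 5040 within a group. The procedure was tested on simulated data. No batch is labelled.

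The members and lists were chosen with earlier results of these data known. Named genes were those with an unadjusted *p* below 0.05, the sensors, *Xbp1*, *Atf4*, *Hspa5*, *Trib3*, *Hsph1* and the most abundant per kb of each role, and from other lists those with an unadjusted *p* below 0.05, at most 3 per list. Other members were described by values chosen after these were seen.

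Alternatives were DESeq2 1.42.0, limma 3.58.1 voom, RLE and upper quartile scaling, other filters, a fit that was not robust, a surrogate variable (sva 3.50.0), another prior count, uncentred values, and leaving out each mouse. Leaving out G2 with G13, or G1 to G4, was added after the data were seen. Shared 100-base windows were counted in GENCODE M21 transcripts.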

Additional observations from a re-analysis of the deposited data

Results flagged for a closer look

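Each member tested and each marker sum was checked for a highest or lowest mouse far from the rest of its group of 7. This marked 5 of them, where chance alone marks about 1 in 20, or 5.1. *Hsph1* was marked in the vehicle group for G6, with 67.1 CPM against 23.7 to 34.2 CPM in the others, a gap of 0.650 of the range on the log2 scale. *Dnajb9* was marked for the same mouse, with 65.5 CPM against 44.9 to 51.8 CPM (0.620 of the range). *Sel1l* was marked for G13 of the vehicle group, with 133 CPM against 119 to 123 CPM (0.705 of the range). The Kupffer cell and macrophage marker sum was marked for G8 of the indole group, with 548 CPM against 150 to 249 CPM (0.607 of the range), and so was the sum of T and NK cell markers, with 9.42 CPM against 1.23 to 2.57 CPM (0.645 of the range).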

How the results depend on the processing

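No paired analysis was possible because the library names G1 to G14 are unique and the labels pair no mice. None of the 39 genes had an adjusted *p* below 0.05 under any alternative. The number with an unadjusted *p* below 0.05, 1 as reported, was 2 with limma voom, 2 with a surrogate variable and 2 without G2 and G13. It was 0 with upper quartile scaling, with a filter at a mean of 10 counts and with a fit that was not robust. It was 0 to 5 when 1 mouse was left out, the most without G12 and 4 without G6. Those fits also gave more such genes over all genes tested, 620 without G12 and 627 without G6, against 482 as reported. Over all genes this number was 1336 with no filter on low counts, and 1 gene had an adjusted *p* below 0.05 with DESeq2 on the same genes, with or without replacement of outlier counts, and 0 with DESeq2 on every gene with a read (719 at an unadjusted *p* below 0.05, smallest adjusted *p* 0.0718). The log2 fold change of *Eif2ak3* was 0.0057 and that of *Calr* −0.0067 with a surrogate variable. Without 1 mouse, *Eif2ak3* ranged from −0.12 to 0.020, *Atf6* from −0.026 to 0.10, *Xbp1* from −0.12 to 0.041 and *Calr* from −0.015 to 0.12, so each changed sign, while the other 8 genes named kept theirs. The number of correlated pairs was 11 without G1 to G4 and 12 to 18 without 1 mouse, 12 being the value without G3. The *r* of *Hspa5* with *Atf6* was −0.163 without G2 and G13 and −0.050 to 0.378 without 1 mouse, and its *r* with *Trib3* was −0.0642 with values not centred and −0.081 to 0.226 without 1 mouse. The causes were not tested. Genes under about 100 reads per mouse are limited by counting error.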
